A study of Sus scrofa with 30 samples.

Results

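The neuropeptide and neuron genes NPY, SST, CARTPT, TAC3, GAD1, SYN1 and SYT1 were followed in the cerebral cortex of pigs through cardiac arrest, resuscitation and infusion of methylene blue. All probe sets whose only gene symbol in the platform's annotation was NPY, SST, CARTPT, TAC3, GAD1, SYN1 or SYT1 were taken. They were 10 probe sets for 7 genes, out of 23999 probe sets on the array, of which 10069 carried a single symbol, for 6765 genes in all. NPY, TAC3 and SYT1 had 2 probe sets each and the other genes 1. A probe set is a group of short probes for 1 transcript, and its value is an array intensity in arbitrary units. Levels of different probe sets were not set against each other.

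The series held 30 Affymetrix porcine arrays, 3 in each of 10 groups, and the labels call the replicates biological. The animals were prepubertal farm pigs of a Swedish triple breed, of both sexes, 12 to 14 weeks old and 25.8 ± 1.3 kg in weight. All were anaesthetised with pentobarbital and all underwent electrically induced ventricular fibrillation, so no group was free of arrest. In the groups CA0, CA5, CA20 and CA30 the brain was taken after 0, 5, 20 or 30 min of arrest without resuscitation. The 6 reperfused groups had 12 min of arrest and then 8 min of chest compressions and a countershock. They were sampled 30, 60 or 180 min after spontaneous circulation returned. By random assignment they received normal saline at 55 mL/kg/h (SAL30, SAL60 and SAL180, the Rosc groups of the labels) or the same volume of saline with methylene blue at 7.5 mg/kg/h (MB30, MB60 and MB180). The infusion ran from 1 min after compressions began until 50 min after circulation returned, so the 60 and 180 min groups were sampled after it had ended. CA0 was the control for each group, and each saline group was the control for the methylene blue group of the same time.

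NPY, SST, CARTPT and TAC3 encode precursors of peptides that neurons cut, pack into dense-core vesicles and release beside their main transmitter. In the cortex, neuropeptide Y and somatostatin mark classes of inhibitory interneurons, and somatostatin cells contact the dendrites of pyramidal cells. CARTPT encodes the cocaine- and amphetamine-regulated transcript peptides, and TAC3 encodes neurokinin B, a tachykinin that acts on the receptor TACR3. GAD1 encodes the glutamate decarboxylase that makes the inhibitory transmitter GABA. SYN1 encodes synapsin I, a protein on the surface of synaptic vesicles that tethers them in a reserve pool, and SYT1 encodes synaptotagmin-1, the calcium sensor of fast vesicle release. In tissue arrays, fewer cells of a type and less RNA per cell cannot be told apart.

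A single array went against its cortex label. The array labelled SAL30 replicate 1 had an NPY intensity (Ssc.15981.1.S1_at) of 88.7, against 595 to 2176 and a median of 1021 on the other 29 arrays, which is a difference of -3.31 on the log2 scale. The weaker NPY probe set stood at 6.01 there, against 8.81 to 85.4 elsewhere. SYN1 was 408 against 521 to 1401, and the SYT1 probe sets were 332 against 366 to 1694 and 3397 against 4678 to 8393. Thus NPY, SYN1 and SYT1 each had their lowest value of 30 on this array. TAC3 had its highest, with 265 against 32.2 to 133 for 1 probe set and 36.4 against 0.776 to 17.8 for the other. SST at 1683, GAD1 at 2884 and CARTPT at 642 lay within the range of the other arrays.

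Genes of other brain regions were high on the same array. The summed intensity of 9 genes of the hypothalamus, thalamus and brain stem was 12490 there and 202 to 473 on the other 29 arrays. Vasopressin (AVP) read 4446 against at most 73.8, oxytocin (OXT) 3256 against at most 21.0, melanin-concentrating hormone (PMCH) 2854 against at most 24.3, and hypocretin (HCRT) 921 against at most 126. SLC6A4 and AGRP of that list stayed within the range of the other arrays. CCK and LAMP5, of cortical neurons, were lowest there, CCK at 354 against 4255 to 9792 and LAMP5 at 399.7 against 2070 to 4234. So was ARPP21, from the list of striatum genes, at 224 against 1292 to 4500. Other neuron genes went the other way or stayed in range. From the inhibitory neuron list of LAMP5, GAD2 (1905 against 711 to 1676) and CALB2 (2104 against 88.9 to 521) were highest there. Of 10 tested genes of the neuropeptide list of CCK, 6 were highest, AVP and POMC among them, and 1 was lowest. AVP and POMC passed the filter on weak signals (intensity 29.55) only through this array, with medians of 27.3 and 27.4 on the others. Their place in that count was therefore set by this array. Of 9 pan-neuronal genes 1 was lowest and 0 were highest. Of 10 other synaptic vesicle genes 6 were lowest on this array (summed intensity 21850, against 27190 to 44860 elsewhere), and of 5 microglia genes 4 were highest (5632, against 1587 to 3876). Of the 16799 probe sets tested, 20.9% lay outside the range of the other 29 arrays on this one, which was the lowest of 30 on 9.2% and the highest on 11.7%. The next were MB60 replicate 2 (lowest on 6.71%, highest on 9.24%), SAL180 replicate 3 (8.74% and 6.19%) and MB180 replicate 3 (5.37% and 6.65%), and no other array exceeded 5.42% or 4.75%. Whether the tissue or label of SAL30 replicate 1 was right was not tested. Results that rest on this array are given with and without it.

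**Figure D1:**
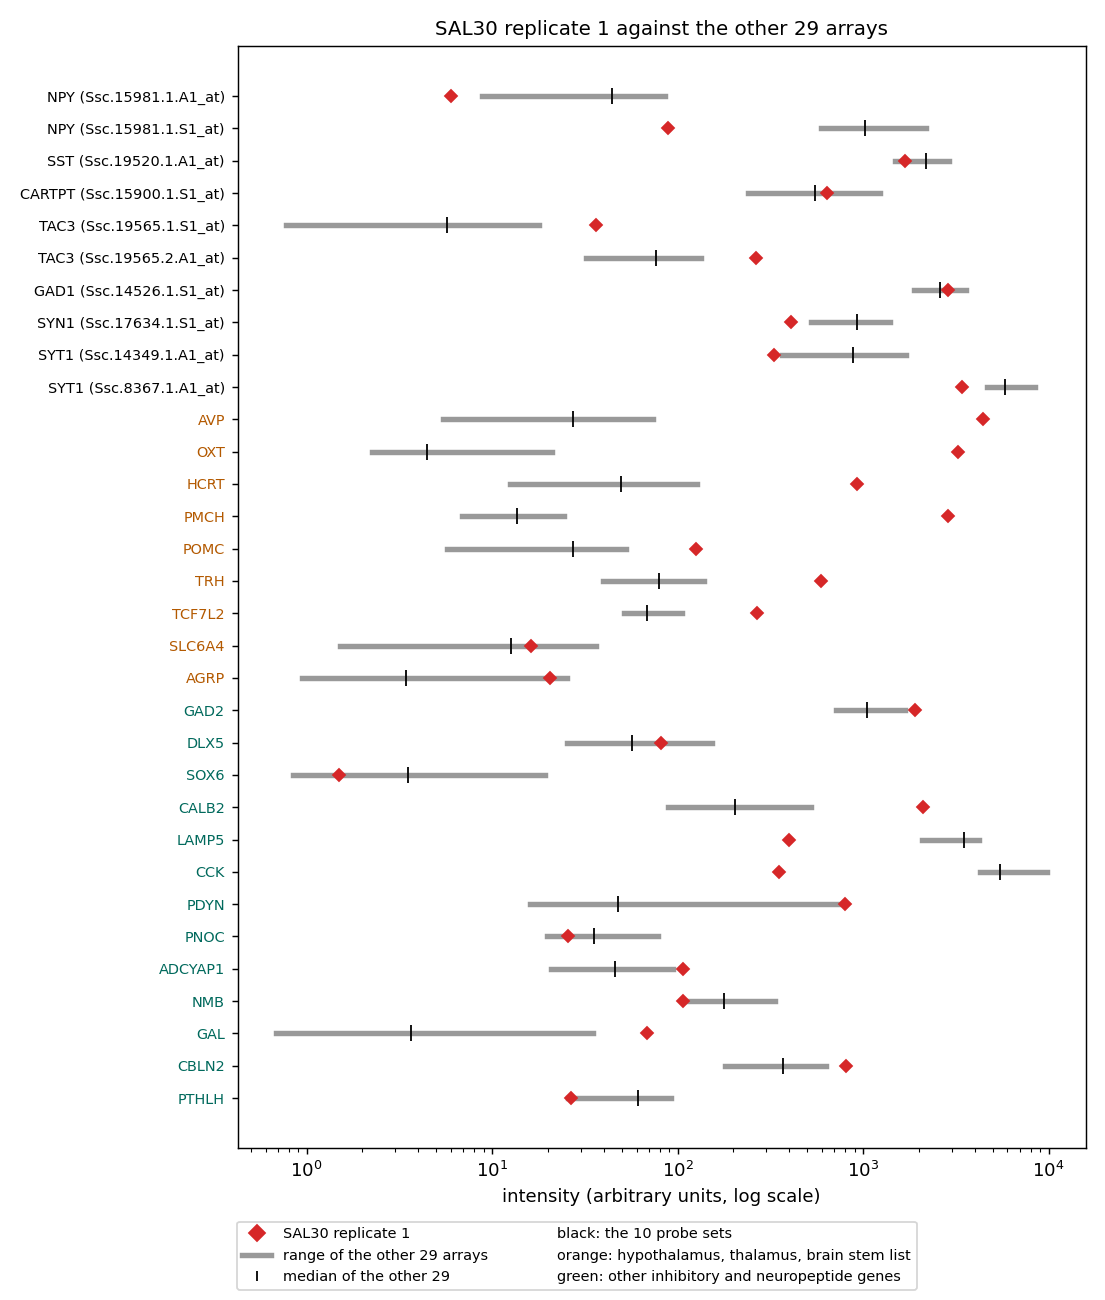
Intensity (log scale, arbitrary units) of the array labelled SAL30 replicate 1 (red diamonds) beside the range (grey bars) and median (ticks) of the other 29 arrays, for the 10 probe sets, a list of hypothalamus, thalamus and brain stem genes, and other inhibitory neuron and neuropeptide genes, including some too weak to be tested. NPY, SYN1 and SYT1 lie left of their bars and TAC3 and AVP right of theirs, while SST, GAD1 and CARTPT lie within.

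Markers of other regions were high on other arrays too. On CA20 replicate 2 transthyretin (TTR) of the choroid plexus read 11960, where the next array read 194, and AQP1 of the same list read 1161, where the next read 463.5. On CA20 replicate 1 prodynorphin (PDYN) was 732 and the dopamine receptor DRD2 was 197, the second highest of 30 for each. DRD2 was highest on SAL30 replicate 2, at 241. The deposited values were scaled to 1 trimmed mean, yet the median intensity of an array was 88.0 to 97.6 in the untreated arrest groups, 87.1 to 105 with saline and 97.6 to 109 with methylene blue. The log2 ratio of the 3' to the 5' signal of the array's control transcripts, a measure that can rise with RNA degradation, was 1.07 to 2.71 in the untreated arrest groups, 0.98 to 2.60 with saline and 0.71 to 1.35 with methylene blue. The 4 arrays above 2 were CA20 replicates 2 and 3, SAL60 replicate 2 and SAL180 replicate 3.

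Of the 10 probe sets, 9 passed the filter on weak signals and were tested, at least 1 for each gene. The probe set left out was the weaker of the TAC3 pair (Ssc.19565.1.S1_at), whose median over the 29 other arrays was 5.71. Tests were made with limma on log2(intensity + 16), in a single fit over the 10 groups, and p-values were adjusted over all 16799 probe sets by the Benjamini-Hochberg method within each comparison. Changes are log2 differences with the standard error (SE) of the fit, and a call is an adjusted p below 0.05. Values of 3 arrays are listed as replicates 1 to 3.

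NPY was the most variable of the 7 genes between arrays of the same group. In untreated arrest the stronger probe set read 918, 617 and 1080 in CA0, 595, 1106 and 935 in CA5, 2176, 1040 and 784 in CA20, and 1536, 762 and 1680 in CA30. With saline it read 88.7, 1446 and 602 in SAL30, 1121, 909 and 912 in SAL60, and 607, 1123 and 1300 in SAL180. With methylene blue it read 1021, 1055 and 1125 in MB30, 620, 1043 and 953 in MB60, and 824, 1334 and 969.8 in MB180. The 2 highest values came from CA20 and CA30, and apart from SAL30 replicate 1 the groups overlapped throughout. Its residual standard deviation was larger than that of 99.2% of the probe sets tested, and of 94.1% without SAL30 replicate 1.

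No NPY difference passed the test in any comparison, but that array set the size of several. SAL30 differed from CA0 by -0.93 ± 0.55 with all arrays and by 0.14 without it. MB30 differed from SAL30 by 1.25 ± 0.55 (adjusted p = 0.189) with all arrays and by 0.19 without it. The mean difference between methylene blue and saline over the 3 times was 0.38 ± 0.32, and 0.03 without that array. The weaker NPY probe set followed the stronger (r = 0.75 over 30 arrays, 0.72 without SAL30 replicate 1), and its largest value, 85.4, was on SAL30 replicate 2.

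Somatostatin (SST) was steadier. It read 1949, 1482 and 2606 in CA0 and 2782, 2069 and 2901 in CA30. The reperfused groups read 1683, 2040 and 2080 in SAL30, 2280, 1718 and 2171 in SAL60, and 1697, 2893 and 1972 in SAL180 with saline and 2116, 2225 and 2916 in MB30, 2675, 2653 and 2459 in MB60, and 2169, 2178 and 2007 in MB180 with methylene blue. The means of MB60 and MB180 were 2595 ± 119 and 2118 ± 96.1 (SD, n = 3 each), and their difference was not tested. The F test over the 10 groups did not call SST (adjusted p = 0.492), where 15.3% of all probe sets were called. Every neighbouring pair of groups in the order of means overlapped. The SST difference between methylene blue and saline was 0.22 ± 0.11 (adjusted p = 0.158, 95% interval -0.01 to 0.44), and 0.18 (adjusted p = 0.26) without SAL30 replicate 1, and 0 of 17 comparisons called it. SST went with NPY across arrays (r = 0.55, and 0.56 without SAL30 replicate 1).

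CARTPT was higher in MB30 and in MB180 than in CA0. In untreated arrest it read 699, 277 and 240.3 in CA0, 627, 308 and 584 in CA5, 492, 350.4 and 380 in CA20, and 519.8, 494 and 645 in CA30. With saline it read 642, 632 and 547 in SAL30, 505, 619 and 988 in SAL60, and 517, 517 and 414 in SAL180. With methylene blue it read 874, 1236 and 1016 in MB30, 412, 1010 and 454 in MB60, and 728, 781 and 768 in MB180. CA0 was split, with replicate 1 at 699 and the others at 277 and 240.3. All 3 arrays of MB30 and of MB180 lay above every CA0 array, as 19.5% and 16.7% of all probe sets did, whereas MB60 overlapped CA0.

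CARTPT was higher in MB30 than in CA0, at 1042 ± 183 against 406 ± 255 (SD, n = 3 each), a log2 difference of 1.47 ± 0.32 or 2.78-fold on that scale (adjusted p = 0.00502). In this comparison 12.2% of all probe sets tested were called (7.58% higher, which is 1273 higher and 771 lower, or 750 and 2134 after median centring), and CARTPT was the 1 called of the 9 tested here. When 1 array of the pair of groups was left out at a time, the difference was 1.20 to 1.94 and the call was kept in all 6 fits. In MB180 CARTPT stood at 759 ± 27.7, a difference of 1.04 ± 0.32 (adjusted p = 0.0421; 9.41% of all probe sets called, 5.7% higher). That second call was lost when any array of the 2 groups other than CA0 replicate 1 was left out, with a lowest value of 0.76 and a highest adjusted p of 0.201. MB60 did not pass, with 0.65 ± 0.32 (adjusted p = 0.185; 12.5% of all probe sets called), although it passed at 1.11 (adjusted p = 0.0265) without CA0 replicate 1.

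In the order of CARTPT group means MB30 was highest. Its range lay above that of MB180, the next group, as for 5.77% of all probe sets. All other neighbours in that order overlapped. The CARTPT probe set was 1 of 2 tested here that varied over the 10 groups by the F test of the same fit (adjusted p = 0.0386, with 15.3% of all probe sets called). Over all 6 reperfused groups against the 4 untreated arrest groups it was higher by 0.57 ± 0.15 (adjusted p = 0.00877; 17.6% of all probe sets called, 10.4% higher, or 1746 higher and 1218 lower, or 1102 and 2955 after median centring), and by 0.57 (adjusted p = 0.0117) without SAL30 replicate 1. The saline groups alone differed from untreated arrest by 0.38 ± 0.17 (adjusted p = 0.457; 1.5% of all called; 0.36 without SAL30 replicate 1, adjusted p = 0.606) and the methylene blue groups alone by 0.77 ± 0.17 (adjusted p = 0.00136; 36.3% of all called). These share the untreated arrest arrays, and the direct difference between methylene blue and saline was 0.39 ± 0.19 (adjusted p = 0.124, 95% interval 0.01 to 0.77), and 0.40 (adjusted p = 0.139) without SAL30 replicate 1, so the arms were not shown to differ for CARTPT.

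The 3'/5' ratio moved with the CARTPT level (r = -0.60 over 30 arrays; r = -0.35 after the group means were removed). With that ratio as a covariate the MB30 difference from CA0 was 1.15 (adjusted p = 0.0806), the MB180 difference 0.79 (adjusted p = 0.19) and the reperfused difference 0.44 (adjusted p = 0.0834; 8.46% of all probe sets called), none past the threshold. The part of RNA quality in the CARTPT result was not tested beyond these fits.

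**Figure D2:**
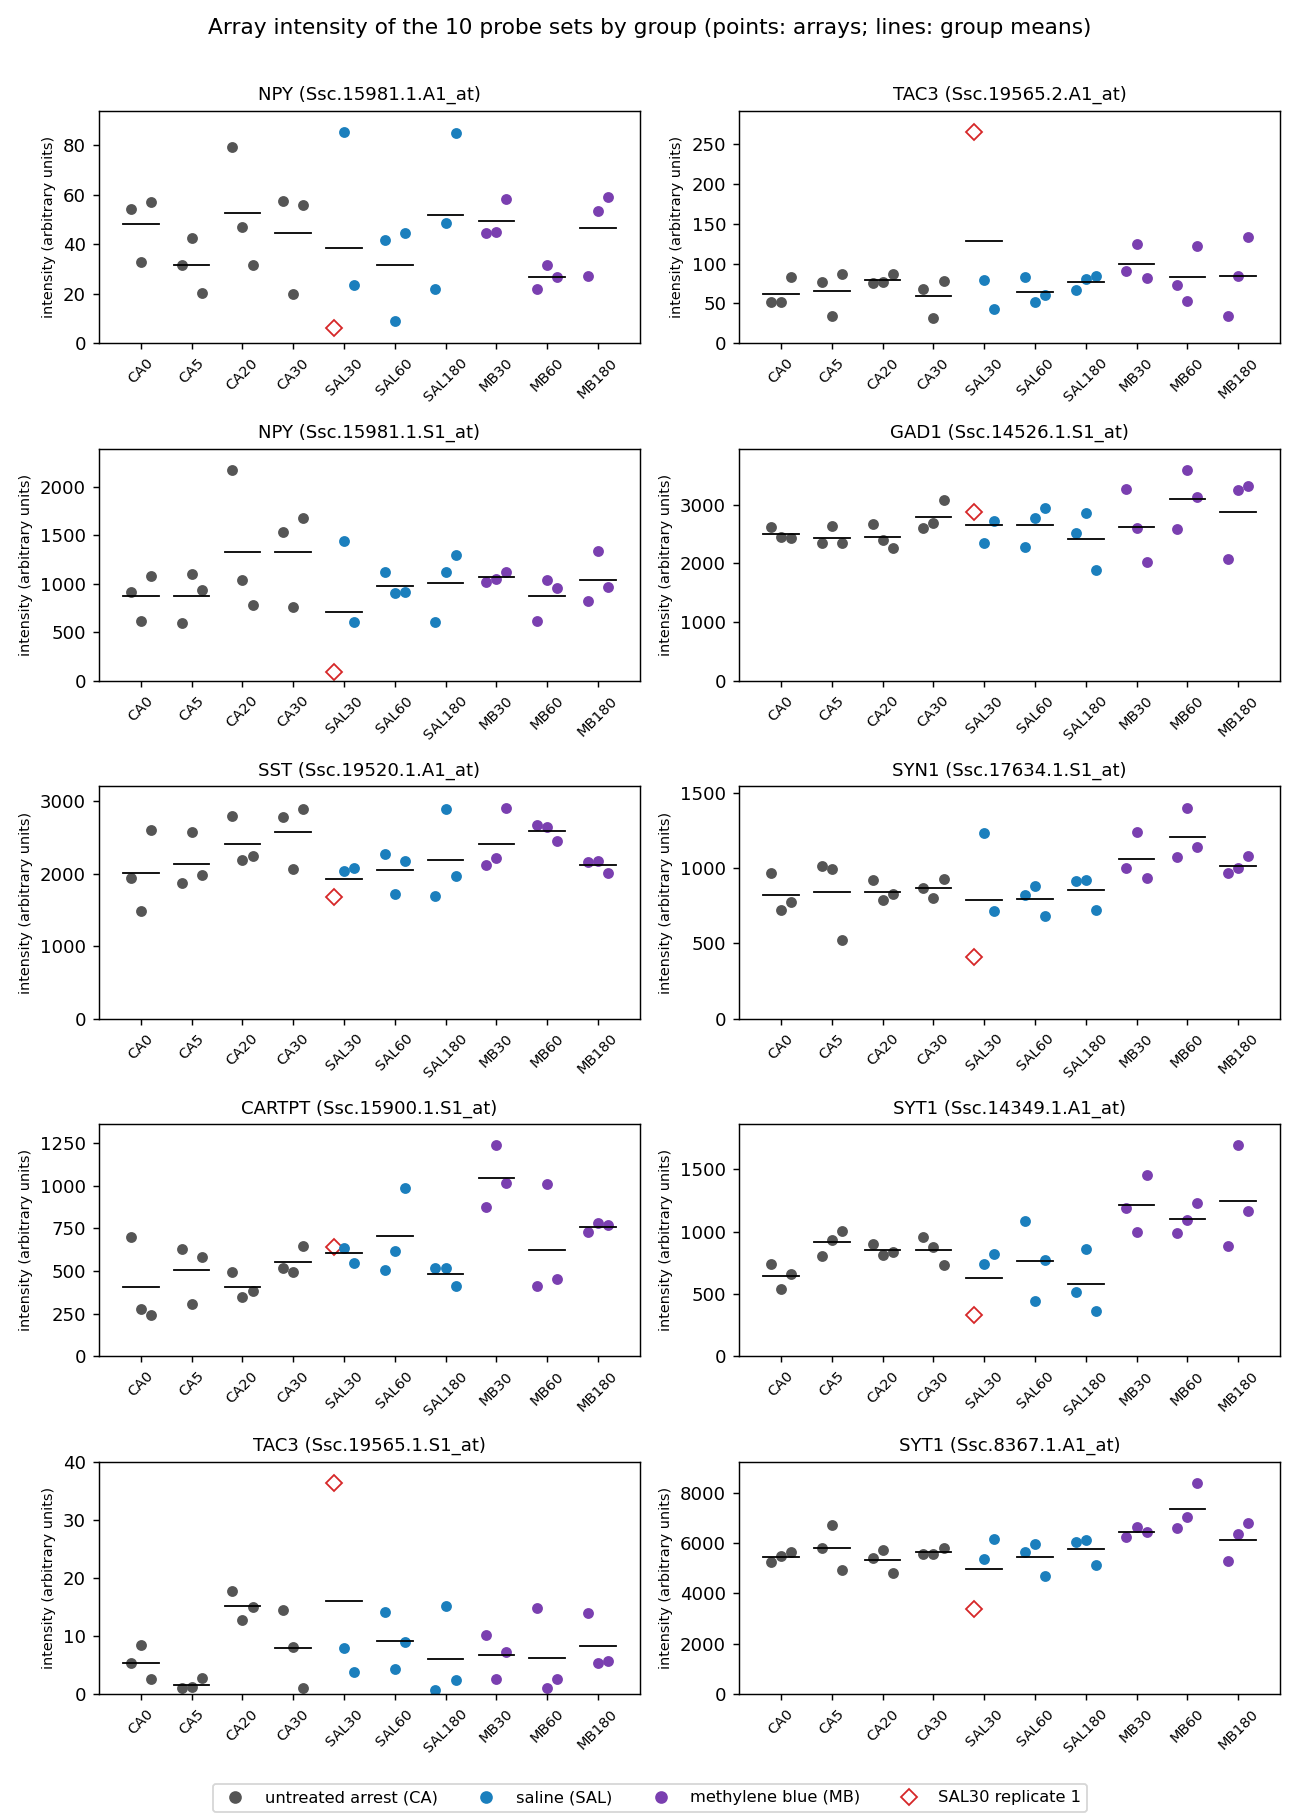
Intensity of the 10 probe sets (arbitrary units, linear axes from 0) in the 10 groups, with a point for each array, a line at each group mean and an open red diamond for SAL30 replicate 1. CARTPT is highest in MB30 (874 to 1236), the upper SYT1 panel (Ssc.14349.1.A1_at) has all 9 methylene blue arrays at 882.5 or above, and NPY spreads widely within groups.

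TAC3, the neurokinin B precursor, was weak on these arrays. The probe set that passed the filter read 52.2, 51.8 and 82.9 in CA0 and 68.6, 32.2 and 78 in CA30, 265, 78.9 and 42.7 in SAL30 and 67.2, 80.4 and 84.6 in SAL180, and 90.6, 125 and 81.9 in MB30 and 34.6, 84.8 and 133 in MB180. Apart from 265 on SAL30 replicate 1, no array exceeded 133. Its 2 probe sets did not follow each other once that array was set aside (r = 0.32 over 30 arrays, -0.03 without it). The TAC3 difference of methylene blue from saline was 0.06 ± 0.24 (adjusted p = 0.875), and 0.28 (adjusted p = 0.346) without that array, and no comparison called it.

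GAD1, the enzyme of GABA synthesis, held a narrow range. It read 2615, 2457 and 2426 in CA0, 2274, 2778 and 2939 in SAL60 and 2585, 3596 and 3136 in MB60. SAL180 replicate 3 had the lowest value of the 30 arrays at 1885 and MB60 replicate 2 the highest at 3596. No neighbouring groups in the order of GAD1 means were apart. Its residual standard deviation was larger than that of only 37.4% of probe sets. The difference between methylene blue and saline was 0.14 ± 0.10 (adjusted p = 0.328, 95% interval -0.07 to 0.35), and 0.16 (adjusted p = 0.286) without SAL30 replicate 1, and 0 of 17 comparisons called it.

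With all arrays, SYN1, on the vesicle surface, and SYT1, the release sensor, were higher with methylene blue than with saline over the 3 times together. The SYN1 call did not hold without SAL30 replicate 1 (0.33, adjusted p = 0.0505). SYN1 read 969.7, 722 and 772 in CA0, 1012, 994.9 and 521 in CA5, 921, 785 and 824 in CA20, and 869, 803 and 924 in CA30 in untreated arrest. With saline it read 408, 1235 and 712 in SAL30, 821, 882 and 681 in SAL60, and 916, 919.5 and 718 in SAL180. With methylene blue it read 998, 1239 and 934 in MB30, 1071, 1401 and 1137 in MB60, and 964, 999 and 1082 in MB180. The lowest, median and highest of the 9 methylene blue arrays were 934, 1071 and 1401, against 408, 821 and 1235 with saline, so the arms overlapped, through SAL30 replicate 2 alone.

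The first SYT1 probe set (Ssc.14349.1.A1_at) read 744, 544 and 658 in CA0, 808, 930.5 and 1008 in CA5, 904, 815 and 837 in CA20, and 958, 879 and 736 in CA30. With saline it read 332, 742 and 824 in SAL30, 1089, 443 and 775 in SAL60, and 514, 862 and 366 in SAL180. With methylene blue it read 1194, 1000 and 1453 in MB30, 991, 1098 and 1229 in MB60, and 882.5, 1694 and 1169 in MB180. Every methylene blue group lay wholly above CA0, as 16.6% of all probe sets did for MB60. SAL60 replicate 1, at 1089, was the only saline array above the lowest methylene blue array, which was MB180 replicate 1 at 882.5. SAL60 replicate 2 and SAL180 replicate 3, both with a high 3'/5' ratio, were among its 3 lowest values with SAL30 replicate 1, whose log2 ratio was 1.35. CA20 replicates 2 and 3, the other 2 arrays of high ratio, read 815 and 837, where the median of all arrays was 870.5.

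The second SYT1 probe set (Ssc.8367.1.A1_at) varied less. It read 5257, 5487 and 5635 in CA0, 5799, 6706 and 4921 in CA5, 5411, 5740 and 4813 in CA20, and 5564, 5556 and 5827 in CA30 in untreated arrest. With saline it read 3397, 5390 and 6148 in SAL30, 5668, 5973 and 4678 in SAL60, and 6063, 6117 and 5131 in SAL180. With methylene blue it read 6257, 6648 and 6427 in MB30, 6619, 7049 and 8393 in MB60, and 5285, 6352 and 6793 in MB180. MB60 stood highest. MB60 and MB30 lay wholly above the saline group of the same time, as 10.3% and 12.8% of all probe sets did, while MB180 overlapped the saline groups.

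For the mean of the 3 differences between methylene blue and saline, 3 of the 9 probe sets were called, all higher, where 25.2% of all probe sets tested were called, 13.8% higher and 11.4% lower, so the share of the 9 was near that of all probe sets. The first SYT1 probe set differed by 0.91 ± 0.18 (adjusted p = 0.000722), or 1.88-fold. The second differed by 0.31 ± 0.09 (adjusted p = 0.0147), or 1.24-fold, and SYN1 by 0.46 ± 0.15 (adjusted p = 0.0221), or 1.38-fold. Both SYT1 probe sets thus passed and were not tested against each other, and their values correlated at r = 0.60 over 30 arrays.

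Without SAL30 replicate 1 the background was 22.6% of probe sets, and both SYT1 calls remained, at 0.78 (adjusted p = 0.00145) and 0.23 (adjusted p = 0.0286). The SYN1 call ended, at 0.33 (adjusted p = 0.0505). Leaving out each of the other 17 arrays of these groups in turn ended none of the 3 calls. With the 3'/5' ratio as a covariate, 8.67% of all probe sets were called, and the first SYT1 probe set was called at 0.64 (adjusted p = 0.0423), whereas the second (0.31, adjusted p = 0.09) and SYN1 (0.39, adjusted p = 0.176) were not. Without SAL30 replicate 1 and the 4 arrays of high ratio, the first SYT1 probe set differed by 0.57 (adjusted p = 0.00896), the second by 0.22 (adjusted p = 0.0563) and SYN1 by 0.32 (adjusted p = 0.116). Centring each array on its median left only the first SYT1 probe set called, at 0.81 (adjusted p = 0.0012). That setting turned the calls over all probe sets from 2313 higher and 1918 lower into 1502 higher and 3350 lower, and quantile normalization gave 1929 and 2403.

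**Figure D3:**
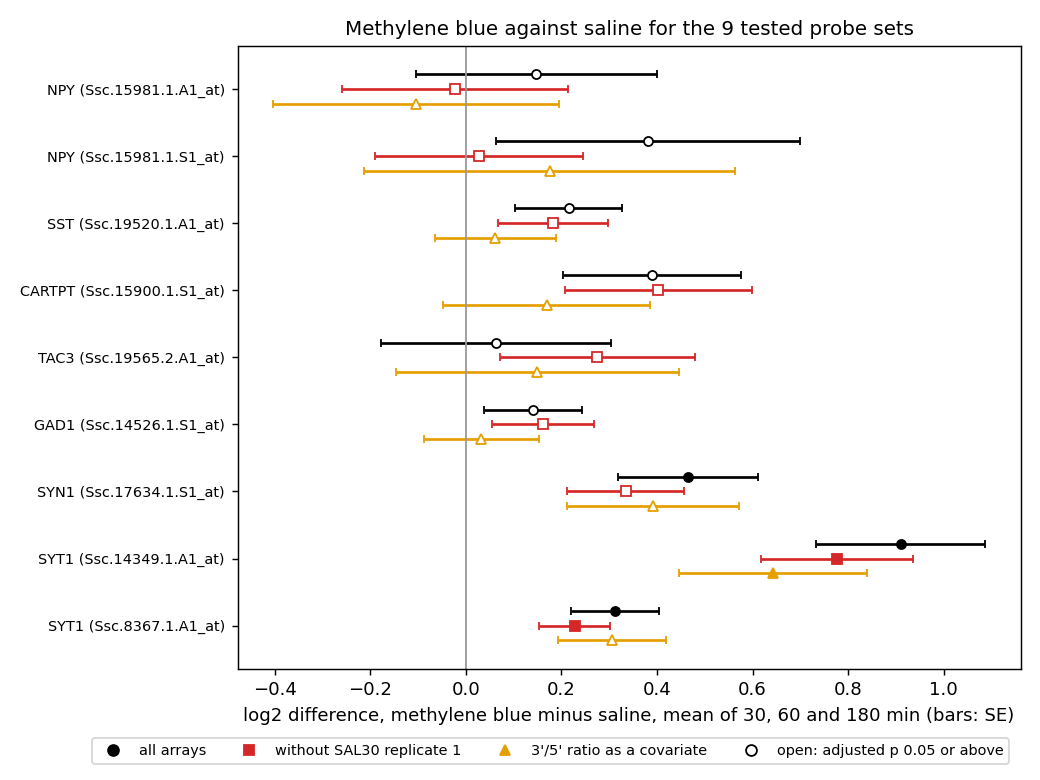
Mean of the 3 log2 differences, methylene blue minus saline, for the 9 tested probe sets (points with SE) with all arrays, without SAL30 replicate 1 and with the 3'/5' ratio as a covariate; filled symbols have an adjusted p below 0.05. The SYT1 probe set Ssc.14349.1.A1_at is filled in all 3 fits (0.91, 0.78 and 0.64), and the NPY probe set Ssc.15981.1.S1_at moves from 0.38 to 0.03 when the array is left out.

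At single times none of the 9 probe sets passed between methylene blue and saline, where 4.09% (30 min), 1.52% (60 min) and 1.9% (180 min) of all probe sets were called. The first SYT1 probe set came nearest, at 1.01 (adjusted p = 0.0573) at 30 min, 0.60 (adjusted p = 0.313) at 60 min and 1.12 (adjusted p = 0.0542) at 180 min. Without SAL30 replicate 1 its 30 min difference was 0.61 (adjusted p = 0.314). No probe set of the 7 genes had a difference between the arms that varied with time (F test of the interaction, 0 of 9; 0% of all probe sets, and 2.88% at an unadjusted p below 0.05). CARTPT had the smallest unadjusted p of the 9, 0.0798. Neither the change from SAL30 to SAL180 nor that from MB30 to MB180 called any of the 9 (0.655% and 0.286% of all probe sets).

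Against CA0 the first SYT1 probe set differed by 0.88 in MB30 (adjusted p = 0.0573), 0.76 in MB60 (adjusted p = 0.0981) and 0.89 in MB180 (adjusted p = 0.0655), short of the threshold each time. Beside CARTPT it was the other probe set that varied over the 10 groups (F test, adjusted p = 0.041). The second, brighter SYT1 probe set was not called by that test (adjusted p = 0.188). With methylene blue alone against the 4 untreated arrest groups, 36.3% of all probe sets were called. There the first SYT1 probe set differed by 0.52 (adjusted p = 0.0153), the second by 0.25 (adjusted p = 0.0233) and SYN1 by 0.38 (adjusted p = 0.0341). Saline alone called none of the 9, with or without SAL30 replicate 1. SYT1 levels also were lower where the 3'/5' ratio was higher (r = -0.58 and -0.31 for the 2 probe sets), and so were those of SYN1 (r = -0.36), GAD1 (r = -0.47) and SST (r = -0.38), while NPY had r = -0.07. After the group means were removed, r was -0.45 and -0.02 for the 2 SYT1 probe sets. It was then -0.15 for SYN1, -0.32 for GAD1, -0.42 for SST and -0.19 for NPY.

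**Figure D4:**
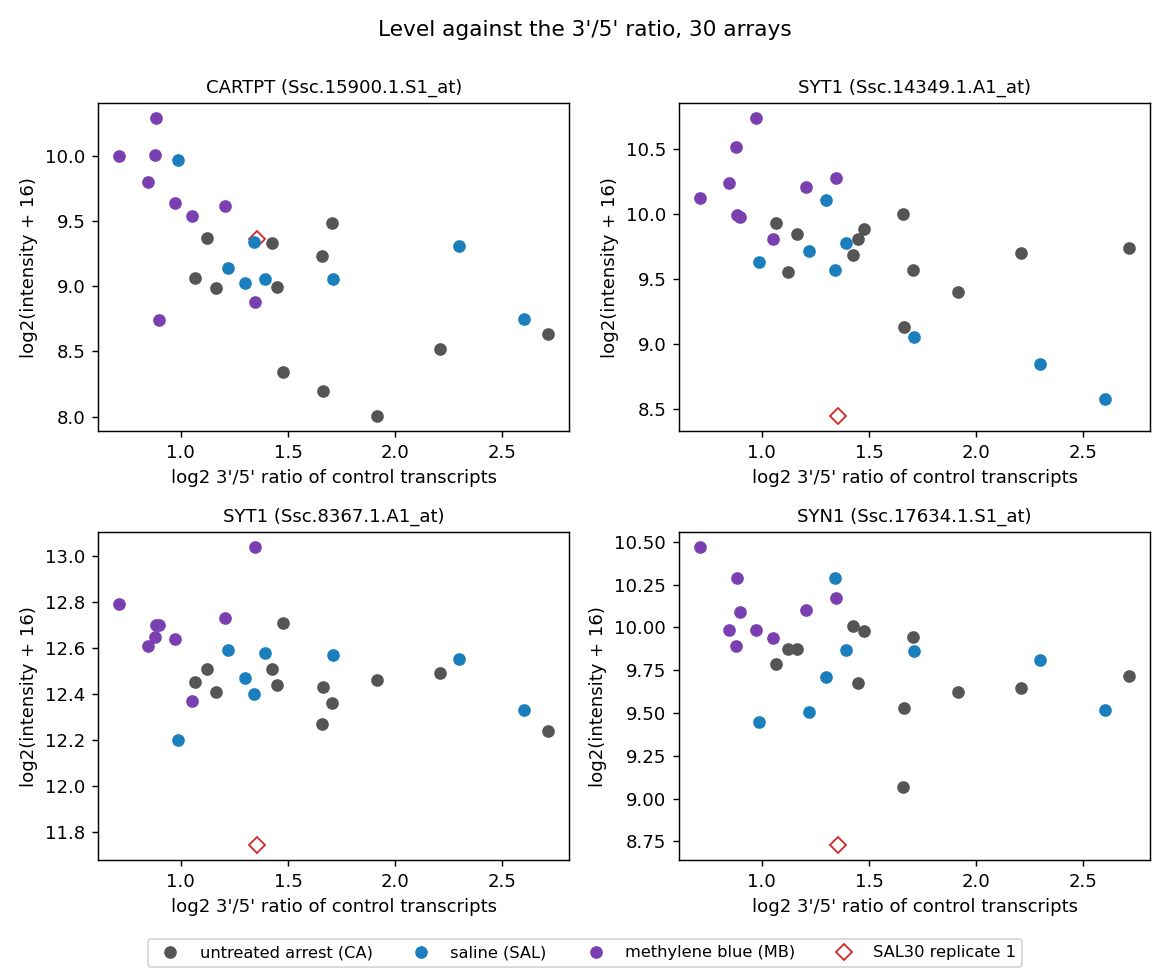
Level, as log2(intensity + 16), of CARTPT, both SYT1 probe sets and SYN1 against the log2 3'/5' ratio of the control transcripts on 30 arrays, coloured by arm, with SAL30 replicate 1 as an open red diamond. Methylene blue arrays lie at ratios of 0.71 to 1.35, and arrays above 2 belong to the untreated arrest and saline arms.

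During arrest without resuscitation none of the 9 probe sets passed. In CA5 against CA0 0% of all probe sets were called (1.89% at an unadjusted p below 0.05), and in CA20 and in CA30 0.0119% each. The linear trend over minutes of arrest called 0 of 9 and 0.00595% of all. The smallest unadjusted p of the 9 in CA30 was that of SST, 0.06, with a difference of 0.38 ± 0.19 (95% interval -0.02 to 0.78). CARTPT differed by 0.58 ± 0.32 (95% interval -0.08 to 1.25) in the same comparison.

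After resuscitation with saline none of the 9 passed against CA0 either, where 0.196% (SAL30), 0.315% (SAL60) and 0.875% (SAL180) of all probe sets were called. CARTPT differed by 0.72 ± 0.32 (adjusted p = 0.644) in SAL30. SYN1 differed by -0.19 ± 0.25 and the SYT1 probe sets by -0.12 ± 0.31 and -0.18 ± 0.16 in SAL30, with SAL30 replicate 1 included. Without it the differences were 0.68 for CARTPT, 0.20 for SYN1 and 0.27 and 0.08 for the SYT1 probe sets, and none passed (adjusted p = 0.998 for each).

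The other neuropeptide precursors were read from a list of 22 genes, of which 12 were on the array and 10 were tested. In the mean difference between methylene blue and saline 1 of 10 was called, where 25.2% of all probe sets were. It was ADCYAP1, the precursor of the peptide PACAP, at 0.62 ± 0.16 (adjusted p = 0.00767). Its values were 52.0 to 94.0 with methylene blue and 20.7 to 49.6 on the saline arrays other than SAL30 replicate 1, which read 107. Without that array ADCYAP1 differed by 0.73 (adjusted p = 0.00162) and CCK, cholecystokinin, by 0.44 (adjusted p = 0.0448), so 2 of 10 were called. With the 3'/5' ratio as a covariate 0 of 10 were called, and ADCYAP1 differed by 0.48 (adjusted p = 0.128). The list's median difference was 0.09 with all arrays and 0.22 without SAL30 replicate 1, beside 0.02 for all probe sets in both fits. By the F test over 10 groups ADCYAP1, PDYN and AVP led without passing (adjusted p = 0.0502, 0.143 and 0.301). AVP and POMC were lifted over the filter (intensity 29.55) by SAL30 replicate 1. They read 4446 and 125 there and had medians of 27.3 and 27.4 elsewhere, so their being tested rests on that array.

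Of 14 genes of peptide processing and dense-core vesicles, 9 were tested and 2 were called in the same comparison, both higher. The list median was 0.33, and 0.20 without SAL30 replicate 1. The share called was near the 25.2% of all probe sets. SCG3, a granin that helps to form secretory granules, was 659 to 863 with methylene blue and 353 to 667 with saline, a difference of 0.48 ± 0.09 (adjusted p = 0.000618). It differed by 0.40 (adjusted p = 0.00103) without SAL30 replicate 1 and by 0.37 (adjusted p = 0.0308) with the covariate. PCSK2, the convertase that cuts peptide precursors, differed by 0.53 ± 0.14 (adjusted p = 0.00676), by 0.42 (adjusted p = 0.0155) without that array and by 0.28 (adjusted p = 0.236) with the covariate. Both varied over the 10 groups (adjusted p = 0.021 and 0.0302), while SCG5 did not pass (adjusted p = 0.295). PCSK2 was also higher in the reperfused groups than in untreated arrest, by 0.38 (adjusted p = 0.0183), by 0.43 (adjusted p = 0.003) without SAL30 replicate 1 and by 0.23 (adjusted p = 0.183) with the covariate.

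Of 34 other synaptic vesicle genes, 10 were tested and 2 were called, both higher. The list median was 0.22, and 0.16 without SAL30 replicate 1. Of all probe sets 25.2% were called. ATP6V1G2, a subunit of the proton pump that acidifies vesicles, was 2416 to 3163 with methylene blue and 1909 to 2751 with saline, a difference of 0.38 ± 0.08 (adjusted p = 0.00123). It differed by 0.38 (adjusted p = 0.00253) without SAL30 replicate 1 and by 0.24 (adjusted p = 0.0752) with the covariate. SYN2, the second synapsin, differed by 0.51 ± 0.17 (adjusted p = 0.0331), and by 0.43 (adjusted p = 0.0764) without that array. In MB60 against CA0 NSF, the ATPase that takes apart used fusion complexes, differed by 0.90 (adjusted p = 0.0115), ADCYAP1 by 0.97 (adjusted p = 0.0251), PCSK2 by 0.95 (adjusted p = 0.0111), SCG3 by 0.51 (adjusted p = 0.0341) and ATP6V1G2 by 0.47 (adjusted p = 0.0264). Among the 3 tested genes of excitatory neurons, BDNF differed there by 0.81 (adjusted p = 0.0366). In MB60 against CA0 12.5% of all probe sets were called, 7.05% higher. Of the genes named in this paragraph only ATP6V1G2 was also called in MB30 against CA0 (0.43, adjusted p = 0.0405). None of them was called in MB180 against CA0. The MB60 differences of these genes are not given for other settings.

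Lists of general neuron genes gave no calls between methylene blue and saline with all arrays, where 25.2% of all probe sets were called. Most of these lists held few tested genes. Of 9 tested pan-neuronal genes 0 were called between methylene blue and saline, with a median of -0.03, and NCAM1, MAP2 and UCHL1 led by the F test without passing (adjusted p = 0.31, 0.51 and 0.644). Of 4 other inhibitory neuron genes 0 were called (median -0.03), and DLX5, CALB2 and LAMP5 led by the limma F test without passing (adjusted p = 0.109, 0.244 and 0.386). Of the receptors of these peptides, only NPY1R and SSTR5 were tested, and neither was called. Of 3 tested excitatory neuron genes 0 were called. Once SAL30 replicate 1 was left out, CAMK2B, a kinase subunit of synapses, differed by -0.26 (adjusted p = 0.0147), where 22.6% of all probe sets were called. BDNF and SLC1A1 were not called.

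Markers of other cell types also differed between the arms, in shares to be read beside the 13.8% higher and 11.4% lower of all probe sets. Of 9 astrocyte genes 2 were higher with methylene blue and 1 was lower, namely NDRG2 by 1.54 (adjusted p = 4.27e-11), SLC1A3 by 0.43 and GLUL by -0.46. Of 7 oligodendrocyte genes 2 were lower (MAL by -0.79 and OPALIN by -0.69), as were 1 of 3 precursor genes (OLIG2 by -0.77) and 1 of 5 microglia genes (TYROBP by -0.52). Of 7 genes of meninges 3 were higher (COL3A1 by 0.87, DCN by 0.55 and IGF2 by 0.78), with 1 of 10 endothelial genes (CDH5 by 0.31) and 1 of 7 smooth muscle genes (MYL9 by 0.65). The summed oligodendrocyte signal was 29530 to 41510 with saline and 25100 to 47870 with methylene blue, and the summed meningeal signal 7306 to 9057 and 6603 to 11000, so the sums overlapped. Red cell genes gave 0 calls of 3, and all 5 leukocyte genes on the array lay under the filter. Without SAL30 replicate 1 each of these counts was the same, but in the meninges list DCN was no longer called (adjusted p = 0.0511) and SLC22A6 was (0.29, adjusted p = 0.0475). With the 3'/5' ratio as a covariate, where 8.67% of all probe sets were called, NDRG2 (1.51), MYL9 (0.86, adjusted p = 0.042) and IGF2 (0.60, adjusted p = 0.0181) were called and the other named markers were not, with adjusted p from 0.0516 (OLIG2) to 0.405 (SLC22A6). The part of the mix of cells in the SYN1, SYT1 and CARTPT results was not tested.

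The genes whose levels were most alike across the 30 arrays, out of 5772 compared, are given as a description, since arrays share RNA quality and scaling. SYT1 (Ssc.8367.1.A1_at) went most closely with VSNL1 (r = 0.86, and 0.85 without SAL30 replicate 1), AP2M1 (0.86 and 0.80) and FAM131A (0.84 and 0.77). SYN1 went with MCRS1 (0.84 and 0.76), FAM131A (0.80 and 0.72) and RTN2 (0.80 and 0.79). SYN1 and this SYT1 probe set also went together, at r = 0.78, and 0.65 without that array. FAM131A stood in both sets.

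GAD1 was most like NEFL (r = 0.79, and 0.81 without SAL30 replicate 1), FAM219B (0.75 and 0.75) and CIT (0.75 and 0.76). SST was most like SERPINI1 (0.77 and 0.75), SCG2 (0.69 and 0.84) and CDH13 (0.69 and 0.70). SCG2 encodes another dense-core vesicle granin. CARTPT was most like ZNF281 (0.74 and 0.74), PREB (0.74 and 0.74) and DESI1 (0.74 and 0.75).

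For NPY the likeness rested on 1 array. CCK led at r = 0.81, followed by SMAP1 at 0.79 and DGKZ at 0.77, and without SAL30 replicate 1 these were 0.34, 0.56 and 0.37. TAC3 was most like TRH (0.78 and 0.61), COL5A3 (0.72 and 0.61) and LRP10 (0.71 and 0.60), and TRH itself read 589 on that array against at most 138 elsewhere.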

How the data were processed

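Total RNA of cerebral cortex from 30 pigs was hybridised to Affymetrix porcine arrays. The authors deposited linear intensity values made with GCOS, per the submitters' processing notes, which give no version or signal algorithm here. In that file the mean after trimming 2% at each end is 300.05 to 300.06 on every array. Of the probe sets, 124 controls were left out, 23999 remained, and symbols came from the platform table (10069 with 1 symbol, 198 with several, 13732 with none); all 7 gene IDs matched the RefSeq table of Sscrofa11.1.

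The deposited intensities were converted to log2(intensity + 16). Those with a mean below the 30th percentile (intensity 29.55) were set aside, and 16799 probe sets were fitted with limma 3.58.1 in R 4.3.3 as 10 group means (20 residual degrees of freedom, intensity trend, two-sided). There were 17 comparisons and 2 F tests. The pipeline was tested on simulated data for SAL30 against CA0, with 16799 probe sets tested. Of 66 probe sets changed by 1 on the log2 scale 71.2% were called, and of 66 changed by 0.5 12.1% were. Among unchanged probe sets 5 were called. The simulated noise of a probe set had the same spread in every group and no outlying array such as SAL30 replicate 1. These rates may therefore not hold for the real SAL30 group. Precision is limited by 3 arrays per group. The genes and lists were chosen with earlier results of these data known. Named genes are all probe sets of the 7 genes, the 3 genes most correlated with each, the 3 members of each neuron list with the smallest F test p, and list members called in a comparison the text counts; a gene counts through its brightest probe set. Markers of other regions on single arrays were named after their values were seen.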

Additional observations from a re-analysis of the deposited data

How the results depend on the processing

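Across the alternatives no called difference changed direction. The settings tried were another pseudocount (1 and 64), another filter (none and the 50th percentile), median centring, quantile normalization, no trend, array weights, the replicate block, the 3'/5' covariate, the compared groups alone, and each array left out. Chosen after seeing the data were fits without SAL30 replicate 1 in the shared spread, fits without it and the 4 arrays of high 3'/5' ratio, and each reperfused arm alone. Counts below are called probe sets of the 9. MB30 against CA0 (1) gave 2 with quantile normalization, array weights, the compared groups alone and both added fits, and 0 with the covariate. MB60 against CA0 (0) gave 1 with the compared groups alone, 1 without SAL30 replicate 1 in the spread and 2 without the high-ratio arrays too. MB180 against CA0 (1) gave 0 with median centring, the replicate block, the covariate and the compared groups alone, and 2 with array weights and without SAL30 replicate 1 in the spread. MB30 against SAL30 (0) gave 1 with quantile normalization, and MB180 against SAL180 (0) gave 1 with a pseudocount of 64, array weights and SAL30 replicate 1 out of the spread. The mean of methylene blue against saline (3) gave 1 with median centring, the covariate and the fit without the high-ratio arrays. The reperfused comparison (1) gave 0 with the covariate, without the high-ratio arrays and for saline alone, and 4 for methylene blue alone. The F test over 10 groups (2) gave 0 with median centring, no trend, the replicate block and the covariate, and 1 without the high-ratio arrays. The cause of these shifts was not tested.

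Leaving out 1 array at a time gave 1 to 1 for MB30 against CA0, 0 to 1 for MB60 and for MB180 against CA0, 0 to 2 for MB30 against SAL30, 0 to 1 for MB180 against SAL180, 2 to 4 for the mean difference, 1 to 1 for the reperfused comparison and 0 to 3 for the F test, and 0 in the other comparisons. In MB30 against SAL30 the calls appeared only where SAL30 replicate 1 weighed more: without replicate 2, NPY (2.09, adjusted p = 0.0285) and SYN1 (0.94, adjusted p = 0.0305), and without replicate 3, both SYT1 probe sets (1.25 and 0.59). The first SYT1 probe set passed in MB180 against SAL180 without SAL180 replicate 2 or MB180 replicate 1, and in MB180 against CA0 (1.11, adjusted p = 0.0371) without that same MB180 array. Without SAL180 replicate 2 SST passed in the mean difference (0.29, adjusted p = 0.0473). The F test call of CARTPT was kept in 19 of 30 such fits and that of the first SYT1 probe set in 11 of 30. Median centring moved the median difference of all probe sets in MB30 against CA0 from 0.04 to -0.15. Replicate numbers did not pair the arrays: deviations of same-numbered arrays had a median correlation of -0.003 (135 pairs), against -0.010 for others (270 pairs), and with the replicate block CARTPT in MB180 against CA0 had an adjusted p of 0.0531. Weak probe sets such as TAC3 and the small NPY probe set lie near the filter, where signal over background limits what can be seen.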

Other observations

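Hypocretin (HCRT), a peptide precursor of lateral hypothalamic neurons, was weak but not uniform in the cortex arrays. It read 12.6 to 60.5 in untreated arrest, 16.7 to 71.6 on the 8 saline arrays other than SAL30 replicate 1, and 29.8 to 126 with methylene blue, so the arms overlapped. It differed between methylene blue and saline by 0.87 ± 0.20 (limma, adjusted p = 0.00387) without that array and by 0.39 ± 0.38 (adjusted p = 0.486) with it. Over the reperfused groups against untreated arrest it was higher by 1.03 (adjusted p = 0.0202), and by 0.79 (adjusted p = 0.0014) without that array. With all arrays and the 3'/5' ratio as a covariate the difference from untreated arrest was 1.09 (adjusted p = 0.0509) and that between methylene blue and saline 0.48 (adjusted p = 0.569). The summed signal of the 9 genes of its list was 327 to 473 with methylene blue, 234 to 358 with saline apart from SAL30 replicate 1, and 202 to 328 in untreated arrest. That sum includes HCRT itself and 4 genes under the filter, and AVP and POMC passed the filter only through SAL30 replicate 1. It is thus largely weak signal. The median intensity of an array was 97.6 to 109 with methylene blue, 87.1 to 105 with saline and 88.0 to 97.6 in untreated arrest. CCK, cholecystokinin, had its lowest, median and highest values at 4330, 7450 and 9792 with methylene blue and at 4677 and 7219 for the lowest and highest of the saline arrays other than SAL30 replicate 1. HCRT and CCK were singled out after their values were seen.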
